A study of Mus musculus with 6 samples.

Results

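Cadherins and protocadherins are membrane proteins that join neighbouring cells through calcium-dependent contacts between their extracellular repeats. The genes described here are all those whose annotated symbol is Cdh followed by a number or Pcdh with any suffix, taken from probe sets (groups of array probes for one transcript) that name a single gene. They number 56 of the 18193 genes measured, 21 Cdh and 35 Pcdh genes, read by 101 probe sets. Among them 29 have 1 probe set and 27 have several, at most 6. RefSeq lists 92 protein-coding genes that fit the rule, and 56 of these had such a probe set.

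RNA was measured on Affymetrix Mouse Genome 430 2.0 arrays, 2 per group. The groups were the atrioventricular (AV) valve of wild-type FVB/N mice at embryonic day 17.5 (E17.5), the AV cushion of the same strain at embryonic day 12.5 (E12.5), and cultured MC3T3-E1 cells (subclone 4), a clonal mouse line of osteoblast progenitors. No group was treated. RNA was pooled for hybridization, the pair of arrays in a group is described as biological duplicates, and how many embryos or cultures went into a pool is not in the labels used here. P-values therefore measure the spread between these pools, which may be technical. The series title frames the study as a search for expression shared by remodelling valves and osteoblast progenitors.

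Classical cadherins bind beta-catenin and p120-catenin through their cytoplasmic tails, and beta-catenin is linked by alpha-catenin to actin. This is the adherens junction. Cushion mesenchyme arises when endocardial cells loosen such junctions and invade the matrix beneath, and type II cadherins such as cadherin-11 are known in mesenchyme and bone cells. Protocadherins lack the catenin-binding tail. They are best known from neurons, where the clustered alpha, beta and gamma genes are expressed in different combinations from cell to cell.

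The deposited values are ratios of each probe set to its median on the 4 embryonic arrays. A log2 ratio of 0 is therefore the middle of the E17.5 and E12.5 arrays, and values do not show whether one gene is more abundant than another. A difference near 0 can also come from a transcript too dim to measure in both groups. Where several probe sets read a gene, their log2 ratios were averaged. Differences are log2 differences with the standard error (SE) from limma, a linear model fitted over all 18193 genes, and n is 2 arrays in every group. Genes with an adjusted p (Benjamini-Hochberg, over all genes) under 0.05 that also differed 2-fold or more are called higher or lower. With 2 arrays a group, the smallest p an exact permutation test allows is 0.333.

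Tissue markers went with the labels in part. Of 14 endothelial markers 13 were called higher in E17.5 valve and 12 in E12.5 cushion than in MC3T3, of 14 cardiomyocyte markers 14 and 14, and of 6 measured osteoblast markers 4 were lower in E17.5 valve and 4 in E12.5 cushion than in MC3T3. Hepatocyte transcripts differed between the E17.5 arrays: over 10 markers the median log2 ratio was 2.66 in replicate 1 and 0.27 in replicate 2. Over 11 erythroid markers it was 1.38 and 0.29 in the E12.5 replicates. Of 10 mesothelial markers 10 were higher in E17.5 valve and 10 in E12.5 cushion than in MC3T3, and of 12 macrophage markers 11 and 10. Of 12 valve mesenchyme markers 2 were higher and 3 lower in E17.5 valve, and 3 higher and 4 lower in E12.5 cushion, than in MC3T3. Of 10 smooth muscle markers 5 were higher and 2 lower in E17.5 valve, and 5 higher and 1 lower in E12.5 cushion, than in MC3T3. Higher than in MC3T3 were 2 of 10 lung, 3 of 11 neural and 3 of 8 melanocyte markers in E17.5 valve, and 0, 3 and 2 of them in E12.5 cushion (2 of the lung markers at an unadjusted limma p below 0.05). Neural markers lower than in MC3T3 numbered 2 in E17.5 valve and 1 in E12.5 cushion. Replicates of the cadherin and protocadherin genes had median gaps of 0.08 in E17.5 valve, 0.12 in E12.5 cushion and 0.11 in MC3T3. Over all genes the median gaps were 0.09, 0.11 and 0.08. The widest gaps of members were 0.66 for Cdh1 in E17.5 valve, 0.65 for Pcdh8 in E12.5 cushion and 0.63 for Cdh17 in MC3T3. No member's replicates were 2-fold apart, and of all 18193 genes 99, 64 and 3 had such replicates in these groups. The labels describe 2 amplification kits without assigning them to arrays.

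Between the embryonic stages 4 protocadherins rose, Pcdh7, Pcdh20, Pcdh17 and Pcdhb7, and no cadherin was called (5 of 21 higher and 5 lower at an unadjusted limma p below 0.05). These are 4 of 56 genes higher at E17.5, where 4.67% of all genes were called higher, and 0 lower, where 1.84% of all genes were (6.51% in either direction). With limma at an unadjusted p below 0.05, 21 members were higher and 12 lower in E17.5 valve, and without the 2-fold requirement the adjusted p was passed by 19 higher and 11 lower, where 19.3% of all genes were higher and 34.2% lower. The median difference was 0.04 over the 56 members and -0.14 over all genes. Centring each array on its own median added Pcdh19 and Pcdhb3 to the genes that rose, with differences of 1.03 and 1.06. Between the same stages 7 of 10 hepatocyte markers were higher and 7 of 11 erythroid markers lower in E17.5 valve. Also higher were 4 of 10 mesothelial, 4 of 12 macrophage, 3 of 14 cardiomyocyte, 2 of 14 endothelial, 2 of 10 lung and 2 of 8 melanocyte markers, and 3 of 10 smooth muscle markers were higher and 2 lower. The part of these cell types in the stage differences was not tested. With only replicate 2 of both stages, an alternative chosen after the values were seen, the members' counts were again 4 higher and 0 lower. In bulk tissue a smaller share of cells with a transcript cannot be told apart from less transcript per cell.

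Pcdh7, a delta-1 protocadherin, had the largest stage difference of the members. It had log2 ratios of 0.71 and 0.47 in E17.5 valve, against -1.32 and -0.98 in E12.5 cushion, and -3.13 and -3.22 in MC3T3. The 3 groups were fully separate, with the valve highest and the cell line lowest. Pcdh7 rose 3.33-fold with stage (1.74 ± 0.13 SE, limma adjusted p = 6.4e-05). Against MC3T3 it was 13.6-fold higher in E17.5 valve (3.76 ± 0.13, limma adjusted p = 1.77e-07) and 4.07-fold higher in E12.5 cushion (2.03 ± 0.13, limma adjusted p = 4.76e-06). Its 3 probe sets agreed in direction and not in size, with stage differences of 3.17, 1.43 and 0.62. In the same order they put E17.5 valve 6.01, 4.30 and 0.98 above MC3T3, and E12.5 cushion 2.84, 2.87 and 0.36 above. The SE does not include this spread between probe sets.

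Pcdh20, an unclustered protocadherin of uncertain role in this tissue, was higher in E17.5 valve than in both other groups. Log2 ratios were 0.43 and 0.48 in E17.5 valve, against -0.88 and -1.13 in E12.5 cushion, and -1.13 and -1.02 in MC3T3. The cushion and the cell line overlapped. The rise with stage was 2.75-fold (1.46 ± 0.10 SE, limma adjusted p = 4.85e-05), and E17.5 valve stood 2.89-fold above MC3T3 (1.53 ± 0.10, limma adjusted p = 6.3e-06). The difference between E12.5 cushion and MC3T3 was 0.07 ± 0.10 (limma adjusted p = 0.57). One of its probe sets gave 2.48 between stages and 2.71 for E17.5 valve minus MC3T3, and the other 0.44 and 0.36.

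Pcdh17, a delta-2 protocadherin known from axon extension, followed the same order of groups as Pcdh7. The arrays read 0.38 and 0.53 in E17.5 valve, against -0.60 and -0.61 in E12.5 cushion, and -2.61 and -2.83 in MC3T3. No arrays of different groups overlapped. It rose 2.08-fold with stage (1.06 ± 0.10 SE, limma adjusted p = 0.000162), and this call was lost without E17.5 replicate 2, where the difference was 0.98. Against MC3T3 it was 9.03-fold higher in E17.5 valve (3.18 ± 0.10, limma adjusted p = 1.1e-07) and 4.34-fold higher in E12.5 cushion (2.12 ± 0.10, limma adjusted p = 9.25e-07). Its 2 probe sets gave 1.11 and 1.00 between stages.

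Pcdhb7, a gene of the beta cluster, rose as well. The arrays read 0.41 and 0.47 in E17.5 valve, against -0.84 and -0.58 in E12.5 cushion, and -1.07 and -0.98 in MC3T3. The valve lay above both other groups, and the cushion lay above the cell line by less than the threshold (0.31 ± 0.10 SE, limma adjusted p = 0.031). The rise with stage was 2.23-fold (1.16 ± 0.10, limma adjusted p = 0.000121), and E17.5 valve was 2.77-fold above MC3T3 (1.47 ± 0.10, limma adjusted p = 8.62e-06). Pcdhb3 was just under the 2-fold requirement at 0.94 ± 0.09 between stages, with 0.35 and 0.44 in E17.5 valve, against -0.62 and -0.47 in E12.5 cushion.

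**Figure D1:**
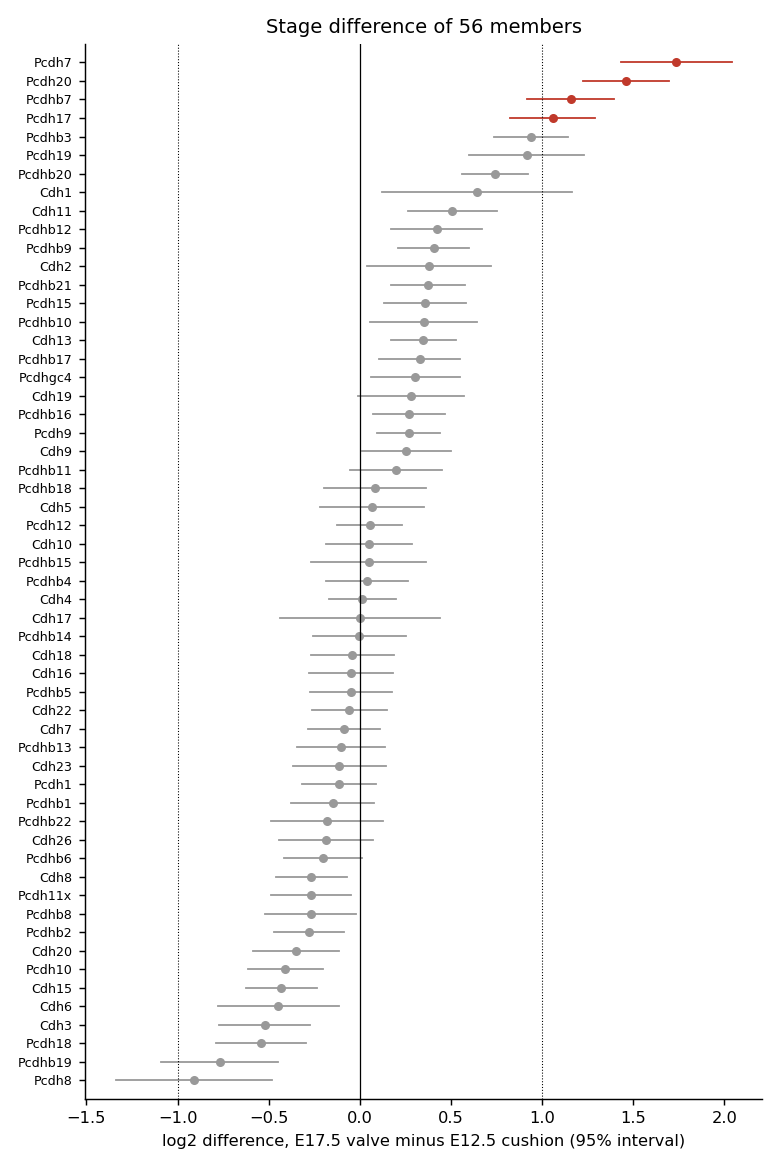
Log2 difference of each of the 56 genes, E17.5 valve minus E12.5 cushion, with its 95% interval from limma, sorted by size; red points are the 4 called genes, grey points were not called, and dotted lines mark 2-fold. Pcdh7 lies at 1.74 at the top and Pcdh8 at -0.91 at the bottom.

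Start-site sequences of the non-clustered protocadherins that rose with stage are shown because the stage result rests on these genes, with that of Pcdh19 as an example of a member higher in MC3T3. They are RefSeq promoters of build GRCm38.p6, from 250 bases before to 50 bases after the start of the gene, written 5′ to 3′, with each E-box CANNTG in capitals. This motif, which basic helix-loop-helix factors such as Twist1 and zinc finger factors such as Snail bind in some of its forms, reads as CANNTG on both strands.

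Pcdh7, chr5:57717831-57718130, plus strand: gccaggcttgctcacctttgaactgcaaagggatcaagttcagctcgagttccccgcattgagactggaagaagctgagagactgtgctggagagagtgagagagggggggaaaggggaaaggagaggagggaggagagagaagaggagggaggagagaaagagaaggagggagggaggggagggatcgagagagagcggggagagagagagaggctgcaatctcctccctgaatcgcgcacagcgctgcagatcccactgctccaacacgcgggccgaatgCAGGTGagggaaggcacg

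Pcdh17, chr14:84443313-84443612, plus strand: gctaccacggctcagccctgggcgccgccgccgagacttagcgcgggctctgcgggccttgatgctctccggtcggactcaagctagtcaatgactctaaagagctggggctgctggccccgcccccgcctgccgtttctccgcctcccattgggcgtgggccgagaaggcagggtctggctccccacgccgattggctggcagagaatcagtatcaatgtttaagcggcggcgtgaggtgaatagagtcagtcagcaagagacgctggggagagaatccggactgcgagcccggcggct

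Pcdh20, chr14:88471347-88471646, minus strand: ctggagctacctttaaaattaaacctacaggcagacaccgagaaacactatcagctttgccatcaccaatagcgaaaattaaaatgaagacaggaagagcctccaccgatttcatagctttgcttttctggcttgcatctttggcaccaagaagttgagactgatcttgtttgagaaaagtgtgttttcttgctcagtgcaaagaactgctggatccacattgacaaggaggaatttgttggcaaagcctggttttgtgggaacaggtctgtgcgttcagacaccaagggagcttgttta

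Pcdh19, chrX:133688944-133689243, minus strand: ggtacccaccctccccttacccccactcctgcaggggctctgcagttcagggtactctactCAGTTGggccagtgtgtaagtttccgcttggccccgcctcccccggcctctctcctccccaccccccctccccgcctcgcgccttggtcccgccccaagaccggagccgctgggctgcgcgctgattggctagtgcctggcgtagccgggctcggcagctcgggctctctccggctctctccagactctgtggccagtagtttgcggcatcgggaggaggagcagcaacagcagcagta

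The Pcdh7 window held 1 match, CAGGTG, the Pcdh19 window held 1, and the Pcdh17 and Pcdh20 windows held 0. CANNTG was held by 72.3% of the 32851 RefSeq promoters of this length, and 20.2% held CAGGTG on either strand, which is one of its forms. Of 23 promoters given for 20 of the members, 13 held CANNTG and 5 held CAGGTG. GC content was 59.3% for Pcdh7, 65.0% for Pcdh17, 43.7% for Pcdh20 and 67.7% for Pcdh19, with a median of 52.7% over all promoters.

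Against MC3T3 cells the members divided in both directions. In E17.5 valve 8 of the 56 were higher and 11 lower than in MC3T3, where 9.78% of all genes were called higher and 7.94% lower (17.7% in all). In E12.5 cushion 6 were higher and 11 lower, where 10.2% of all genes were higher and 10.8% lower (21.1% in all). As a share of members this is 14.3% higher and 19.6% lower for E17.5 valve, and 10.7% higher and 19.6% lower for E12.5 cushion. Both comparisons use the same MC3T3 arrays, so that their values are given side by side and not as separate evidence. Without the 2-fold requirement 18 members were higher and 23 lower in E17.5 valve, against a background of 21.3% and 38.8% of all genes, and 19 higher and 20 lower in E12.5 cushion, against 29.4% and 28.3%. The groups of arrays did not overlap for any called gene. This follows from the 2-fold requirement, as no replicates of a member lay further apart than 0.66, and is no separate evidence.

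Among type I cadherins, the founding class of the adherens junction, Cdh1 and Cdh3 were each called in one comparison. Cdh1, the E-cadherin of epithelia, had log2 ratios of 0.70 and 0.04 in E17.5 valve, against -0.04 and -0.51 in E12.5 cushion, and -1.19 and -1.32 in MC3T3. The embryonic arrays all lay above the cell line and the stages nearly met. E17.5 valve was 3.08-fold above MC3T3 (1.62 ± 0.22 SE, limma adjusted p = 0.000437), while E12.5 cushion differed from MC3T3 by 0.98 ± 0.22 and the stages by 0.64 ± 0.22, both under 2-fold. The stage difference was 0.31 without E17.5 replicate 1, the array with more hepatocyte RNA. It was 0.55 with only replicate 2 of both stages, which leaves that array out too. The E12.5 difference passed 2-fold without E12.5 replicate 2 (1.22) and without MC3T3 replicate 1 (1.04). Without E17.5 replicate 1, E17.5 valve stood 1.29 above MC3T3 (limma adjusted p = 0.00145). Of 13 epithelial markers 4 were higher in E17.5 valve and 5 in E12.5 cushion than in MC3T3, none was called between the stages by limma (0 higher and 7 lower at an unadjusted p below 0.05), and their median log2 ratio was -0.09 and -0.16 on the E17.5 arrays, 0.13 and 0.08 on the E12.5 arrays, and -0.29 and -0.45 on the MC3T3 arrays. The part of epithelial cells or hepatocytes in the Cdh1 values was not tested.

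Cdh3, the P-cadherin of placenta and epithelia, was highest in the cushion. The arrays read -0.31 and -0.26 in E17.5 valve, against 0.17 and 0.31 in E12.5 cushion, and -0.63 and -0.91 in MC3T3. E12.5 cushion was 2.01-fold above MC3T3 (1.01 ± 0.11 SE, limma adjusted p = 8.61e-05). This call was lost without E12.5 replicate 2 (0.94) and without MC3T3 replicate 2 (0.87). Of the 2 probe sets of Cdh3, 1 put E12.5 cushion 1.60 above MC3T3 and the other 0.42. The stage difference was -0.52 ± 0.11 and was not called. Cdh2, the N-cadherin of heart muscle and mesenchyme, was called in no comparison. It read 0.18 and 0.08 in E17.5 valve, against -0.40 and -0.09 in E12.5 cushion, and -0.23 and 0.14 in MC3T3. The 95% interval of its stage difference was 0.04 to 0.72, and that of its difference between E17.5 valve and MC3T3 was -0.17 to 0.52, so that a 2-fold difference lies outside both. The retinal cadherin gene Cdh4 and the muscle cadherin gene Cdh15 were not called either, with differences between -0.43 and 0.42 over the 3 comparisons.

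Type II cadherins held the largest difference of any Cdh gene. Cdh5, the VE-cadherin of endothelial junctions, had log2 ratios of 0.00 and 0.07 in E17.5 valve, against -0.06 and 0.00 in E12.5 cushion, and -3.04 and -3.41 in MC3T3. The cell line was well below all embryonic arrays. E17.5 valve was 9.58-fold above MC3T3 (3.26 ± 0.12 SE, limma adjusted p = 2.78e-07) and E12.5 cushion 9.14-fold (3.19 ± 0.12, limma adjusted p = 3.04e-07). Between the stages it differed by 0.07, with a 95% interval of -0.22 to 0.35. One of its 2 probe sets put the valve 5.96 above MC3T3 and the other 0.56. The endothelial markers beside it had median log2 ratios of 0.17 and 0.22 in E17.5 valve, -0.21 and -0.20 in E12.5 cushion, and -3.33 and -3.56 in MC3T3, where 2 of the 14 were at the lowest value of the table. Pecam1, an adhesion molecule of the same cells, stood at -4.46 and -4.56 in MC3T3. The share of endothelial cells in the tissues, and its part in the Cdh5 values, was not tested.

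Cdh11, the cadherin of mesenchyme and osteoblasts, went the other way. Its log2 ratios were 0.15 and 0.41 in E17.5 valve, against -0.28 and -0.17 in E12.5 cushion, and 1.47 and 1.52 in MC3T3. The 3 groups were separate, with the cushion lowest and the cell line highest. E17.5 valve was 2.32-fold below MC3T3 (-1.21 ± 0.10 SE, limma adjusted p = 2.86e-05) and E12.5 cushion 3.3-fold below (-1.72 ± 0.10, limma adjusted p = 3.45e-06). The stage difference was 0.51 ± 0.10 (limma adjusted p = 0.00489), 1.42-fold and not called. Its 2 probe sets agreed in direction in each comparison.

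Cdh6, a type II cadherin known from kidney and neural crest, was higher in both embryonic tissues than in the cell line. The arrays read -0.06 and -0.39 in E17.5 valve, against 0.05 and 0.39 in E12.5 cushion, and -1.31 and -1.24 in MC3T3. E12.5 cushion was 2.83-fold above MC3T3 (1.5 ± 0.14 SE, limma adjusted p = 4.34e-05) and E17.5 valve 2.08-fold (1.05 ± 0.14, limma adjusted p = 0.000382). The E17.5 call was lost when E17.5 replicate 1 was left out (0.89). The 2 probe sets of Cdh6 put E17.5 valve 1.83 and 0.28 above MC3T3, and E12.5 cushion 2.31 and 0.69 above. The remaining type II genes, Cdh7, Cdh8, Cdh9, Cdh10, Cdh18, Cdh19, Cdh20 and Cdh22, were called in no comparison, and their differences lay between -0.51 and 0.44. For Cdh10, a neuronal cadherin, 1 of 4 probe sets put E17.5 valve 1.88 above MC3T3 while the others lay between -0.23 and 0.00.

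Of the cadherins outside these classes, Cdh13 and Cdh17 moved in opposite directions. Cdh13 encodes T-cadherin, which lacks a cytoplasmic tail, is held by a lipid anchor and binds adiponectin. Log2 ratios were 0.16 and 0.15 in E17.5 valve, against -0.24 and -0.15 in E12.5 cushion, and -1.67 and -1.63 in MC3T3. Replicates were within 0.09 of each other and the groups did not overlap. E17.5 valve was 3.49-fold above MC3T3 (1.80 ± 0.08 SE, limma adjusted p = 5.16e-07) and E12.5 cushion 2.74-fold (1.46 ± 0.08, limma adjusted p = 1.54e-06). Of its 4 probe sets 2 put the valve 3.41 above MC3T3, and the other two 0.35 and 0.04.

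Cdh17, the cadherin of intestine and fetal liver, was high in the cell line. The arrays read 0.04 and -0.05 in E17.5 valve, against -0.12 and 0.12 in E12.5 cushion, and 1.95 and 2.58 in MC3T3. E17.5 valve was 4.81-fold below MC3T3 (-2.27 ± 0.19 SE, limma adjusted p = 2.41e-05), and the value for E12.5 cushion was -2.27 too. It has 1 probe set, so that no second reading of the gene exists here. Cdh16, Cdh23 and Cdh26 were called in no comparison. Cdh26 came nearest, with 0.70 and 0.98 in MC3T3 and a difference of -0.97 ± 0.11 for E17.5 valve minus MC3T3.

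**Figure D2:**
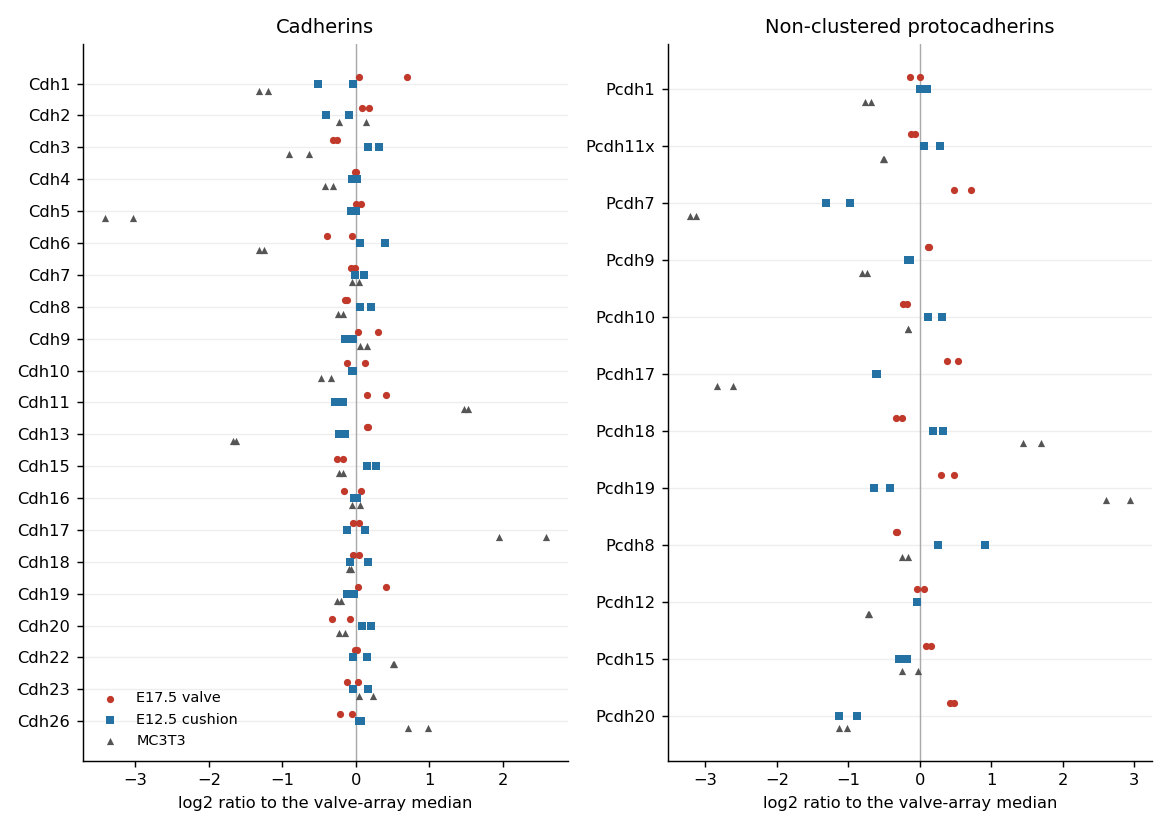
Log2 ratio to the median of the embryonic arrays for the 21 cadherins (left) and the 12 non-clustered protocadherins (right), with 1 point per array in E17.5 valve (red circles), E12.5 cushion (blue squares) and MC3T3 (grey triangles). The MC3T3 points lie far below the others for Cdh5, Cdh13, Pcdh7 and Pcdh17 and far above them for Cdh11, Cdh17, Pcdh18 and Pcdh19.

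The delta-2 protocadherins Pcdh18 and Pcdh19 were higher in MC3T3, opposite to their class member Pcdh17. Pcdh19, a partner of N-cadherin in neural tissue, had log2 ratios of 0.47 and 0.30 in E17.5 valve, against -0.42 and -0.64 in E12.5 cushion, and 2.60 and 2.94 in MC3T3. The groups were separate, in the same order as for Cdh11. E17.5 valve was 5.23-fold below MC3T3 (-2.39 ± 0.14 SE, limma adjusted p = 2.67e-06) and E12.5 cushion 9.87-fold below (-3.30 ± 0.14, limma adjusted p = 4.31e-07). Its stage difference was 0.92 ± 0.14 (limma adjusted p = 0.0011), 1.89-fold and so not called. That difference passed 2-fold when E12.5 replicate 1 (1.03) or E17.5 replicate 2 (1.005) was left out, and when the median over probe sets was used (1.09). Its 3 probe sets gave 1.70, 1.14 and -0.09 between stages.

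Pcdh18 had log2 ratios of -0.25 and -0.33 in E17.5 valve, against 0.18 and 0.32 in E12.5 cushion, and 1.45 and 1.70 in MC3T3. Here the valve was lowest, the cushion between and the cell line highest. E17.5 valve was 3.64-fold below MC3T3 (-1.86 ± 0.11 SE, limma adjusted p = 2.62e-06) and E12.5 cushion 2.5-fold below (-1.32 ± 0.11, limma adjusted p = 1.58e-05). Its stage difference of -0.54 ± 0.11 was not called, and its 3 probe sets agreed in direction in every comparison. The other delta-2 genes, Pcdh8 and Pcdh10, were not called. Pcdh8, a protocadherin of paraxial mesoderm and synapses, had 0.91 and 0.26 in E12.5 cushion and a stage difference of -0.91 ± 0.18, which passed 2-fold without E12.5 replicate 2 (-1.24).

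The other delta-1 genes were, as means over their probe sets, above MC3T3 by less than 2-fold. Pcdh1, Pcdh9 and Pcdh11x were higher by 0.41 to 0.89 in E17.5 valve and by 0.62 to 0.77 in E12.5 cushion, each with a limma adjusted p below the threshold. For Pcdh9 the E17.5 difference of 0.89 passed 2-fold when arrays were centred (1.015) and with the median over probe sets (1.20), and its 3 probe sets gave 1.25, 1.34 and 0.07. Pcdh12, the protocadherin of endothelial cells known as VE-cadherin-2, differed from MC3T3 by 0.73 ± 0.08 in E17.5 valve and 0.67 ± 0.08 in E12.5 cushion. One of its 3 probe sets put these tissues 2.34 and 1.97 above MC3T3, while the others lay between -0.18 and 0.21. Pcdh15, known from inner ear hair cells, was not called as a gene, but 1 of its 3 probe sets put E17.5 valve 1.27 above E12.5 cushion and 1.32 above MC3T3.

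**Figure D3:**
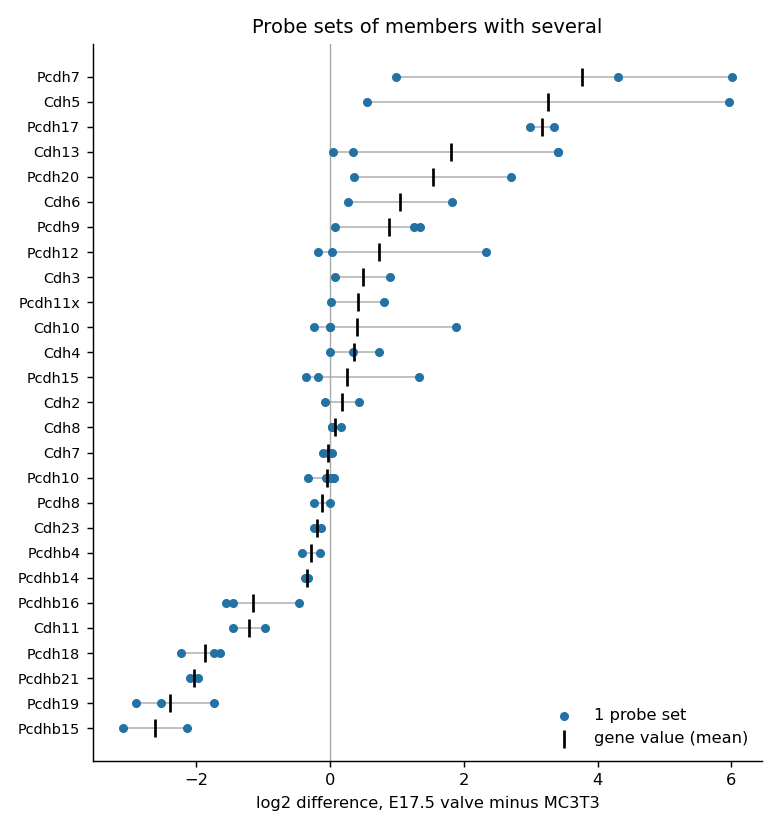
Log2 difference of E17.5 valve minus MC3T3 for each probe set (blue points) of the 27 members with several, and the mean used as the gene value (black ticks), sorted by that mean. Probe sets of Pcdh7, Cdh5 and Cdh13 spread over more than 3 log2 units while those of Pcdh17 and Pcdhb21 lie close together.

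Part of the beta cluster was far higher in MC3T3. Between the stages 1 of the 22 beta genes was called, which is 4.55%, where 6.51% of all genes were called. By the adjusted p alone 9 were higher and 2 lower in E17.5 valve, where 19.3% of all genes were higher and 34.2% lower. Of 22 beta genes 7 were lower in E17.5 valve and 7 in E12.5 cushion than in MC3T3. As a share this is 31.8% for each tissue, where 7.94% and 10.8% of all genes were called lower. Only Pcdhb7 was called in the other direction, for E17.5 valve alone (4.55%, where 9.78% of all genes were). Pcdhb9 had the largest difference. Its log2 ratios were 0.14 and 0.27 in E17.5 valve, against -0.24 and -0.16 in E12.5 cushion, and 3.039 and 2.997 in MC3T3. The cell line stood far above the embryonic arrays, which lay close to each other. E17.5 valve was 7.03-fold below MC3T3 (-2.81 ± 0.08 SE, limma adjusted p = 7.98e-08) and E12.5 cushion 9.3-fold below (-3.22 ± 0.08, limma adjusted p = 4.27e-08).

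Pcdhb15, Pcdhb17 and Pcdhb21 were next. Pcdhb15 had 0.00 and 0.12 in E17.5 valve, against 0.00 and 0.01 in E12.5 cushion, and 2.46 and 2.89 in MC3T3. Pcdhb17 had 0.10 and 0.24 in E17.5 valve, against -0.22 and -0.10 in E12.5 cushion, and 2.14 and 2.30 in MC3T3. Pcdhb21 had 0.14 and 0.18 in E17.5 valve, against -0.27 and -0.16 in E12.5 cushion, and 2.11 and 2.27 in MC3T3. For these genes E17.5 valve was 6.12-fold, 4.16-fold and 4.08-fold below MC3T3, and E12.5 cushion 6.33-fold, 5.22-fold and 5.28-fold below. Pcdhb12 and Pcdhb16 were lower in both tissues as well, with differences from MC3T3 of -1.29 and -1.15 for E17.5 valve and -1.71 and -1.42 for E12.5 cushion. The 3 probe sets of Pcdhb16 gave -1.45, -1.55 and -0.47 for E17.5 valve and -1.72, -2.11 and -0.44 for E12.5 cushion. Pcdhb20 was called for E12.5 cushion (-1.23 ± 0.08 SE) and missed 2-fold for E17.5 valve (-0.49 ± 0.08), and its stage difference of 0.74 ± 0.08 passed the adjusted p but not 2-fold. Pcdhb19 was called for E17.5 valve (-1.19 ± 0.14) and missed 2-fold for E12.5 cushion (-0.42 ± 0.14), with a stage difference of -0.77 ± 0.14. Its E17.5 call was lost without MC3T3 replicate 2 (-0.96). Pcdhb22 just missed 2-fold for E17.5 valve (-0.997 ± 0.132) and stood at -0.82 ± 0.13 for E12.5 cushion. Its E17.5 difference passed 2-fold without E17.5 replicate 2 (-1.03) and without MC3T3 replicate 1 (-1.21). Its E12.5 difference did so without MC3T3 replicate 1 (-1.03).

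In their order along the chromosome the called beta genes were not evenly placed. Among the 11 genes from Pcdhb1 to Pcdhb11, 1 was lower in E17.5 valve and 1 in E12.5 cushion than in MC3T3, Pcdhb9 in both cases. Among the 11 from Pcdhb12 to Pcdhb22, 6 were lower in E17.5 valve and 6 in E12.5 cushion. The median difference of E17.5 valve minus MC3T3 was -0.22 in the first set and -1.15 in the second, and for E12.5 cushion -0.11 and -1.23. The division was made after the values were seen and was not tested. Beta genes are near-identical copies in places, so that probe sets of one may read transcripts of another, and counts of separate genes are uncertain for that reason.

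**Figure D4:**
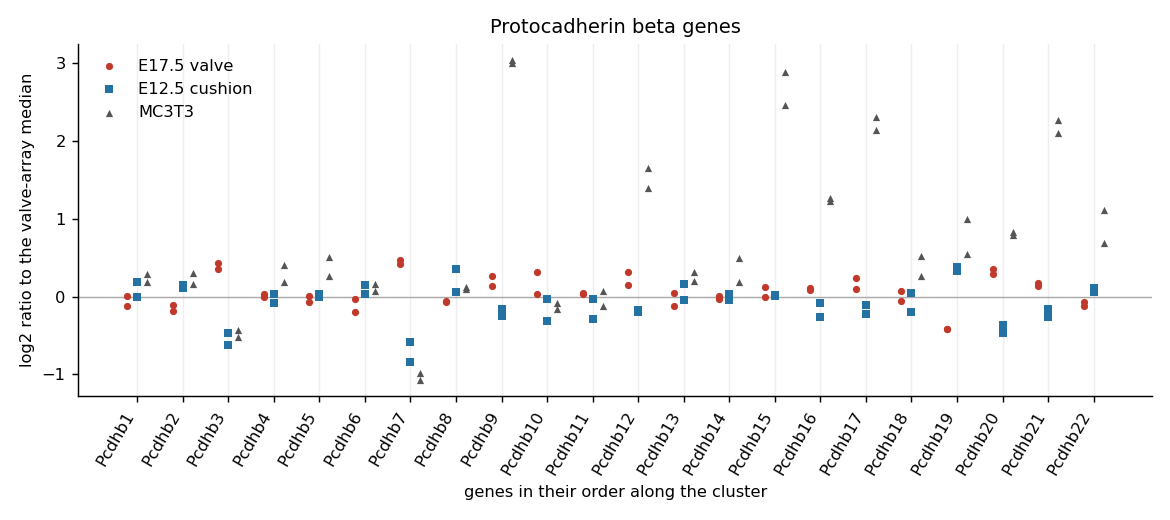
Log2 ratio to the median of the embryonic arrays for the 22 protocadherin beta genes in their RefSeq order along the cluster, with 1 point per array in E17.5 valve (red circles), E12.5 cushion (blue squares) and MC3T3 (grey triangles). MC3T3 points reach 3.04 for Pcdhb9 and stand above 2 for Pcdhb15, Pcdhb17 and Pcdhb21, while those of Pcdhb7 lie near -1.

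In the neighbouring gamma cluster only Pcdhgc4 was read by a probe set that names it alone. Probe sets naming several gamma genes were not looked at. Pcdhgc4 had 0.14 and 0.14 in E17.5 valve, against -0.16 and -0.16 in E12.5 cushion, and 0.98 and 0.69 in MC3T3, a difference of -0.996 ± 0.105 SE for E12.5 cushion that fell just short of 2-fold. Genes of the alpha cluster, whose transcripts share their last exons, were named by 6 probe sets, each naming 9 or 14 genes, which the rule leaves out. They were not tested. Of the 3 that name 14 genes, the first had log2 ratios of 0.09 and 0.57 in E17.5 valve, against -0.16 and -0.10 in E12.5 cushion, and 4.49 and 4.53 in MC3T3. The next had 0.05 and 0.00 in E17.5 valve, against -0.10 and 0.00 in E12.5 cushion, and 4.42 and 4.61 in MC3T3. The last reached 1.10 and 1.38 in MC3T3. The 3 that name 9 genes lay between -0.06 and 0.59 in MC3T3, so that 2 of the 6 probe sets stood far above the embryonic arrays.

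By the authors' cutoff for expression in MC3T3, a ratio above 1.5, 22 of the 101 probe sets of the members passed on both MC3T3 arrays. This is 21.8%, against 18.3% of all probe sets that name one gene. As the values are ratios to the median of the embryonic arrays, passing the cutoff means standing above that median. It does not show whether a transcript is present in MC3T3.

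Of 32 adherens junction partners 1 was higher and 1 lower in E17.5 valve than in E12.5 cushion. This is 6.25%, where 6.51% of all genes were called. Ctnnal1, an alpha-catenin relative, rose 2.2-fold, and Ctnnd2, the neural delta-catenin, fell 2.35-fold (limma adjusted p = 4.49e-05 and 3.34e-05). At the adjusted p without the 2-fold requirement 4 were higher and 10 lower, where 19.3% of all genes were higher and 34.2% lower. Against MC3T3, 5 were higher and 5 lower in E17.5 valve (31.2% in either direction, where 17.7% of all genes were), and 6 higher and 4 lower in E12.5 cushion (31.2%, where 21.1% of all genes were). The median difference was -0.07 over the list between the stages, -0.15 for E17.5 valve and -0.03 for E12.5 cushion against MC3T3, beside -0.14, -0.15 and 0.01 over all genes. The core catenins of the adherens junction were called in no comparison: differences lay between -0.62 and 0.49 for Ctnna1, -0.19 and -0.07 for Ctnnb1, and -0.21 and -0.05 for Ctnnd1. Jup, the plakoglobin of junctions and desmosomes, exceeded MC3T3 2.59-fold in E17.5 valve and 2.66-fold in E12.5 cushion. The nectins, which build junctions beside cadherins, went in opposite directions, with Nectin2 3.67-fold and 6.16-fold higher and Nectin3 3.05-fold and 3.45-fold lower in E17.5 valve and E12.5 cushion than in MC3T3. Ctnna3, the alpha-catenin of heart muscle, was 3.43-fold and 2.94-fold higher, and Vcl, the gene of the actin linker vinculin, 2.27-fold and 2.61-fold lower.

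A list for the wider cadherin superfamily had 24 measured genes, counting Fjx1, which is not itself a cadherin. None of the 24 was called between the stages by limma. At an unadjusted limma p below 0.05, 2 were higher and 13 lower in E17.5 valve, where 3796 of 18193 genes were higher and 7101 lower. Against MC3T3, 5 were higher and 2 lower in each tissue, which is 29.2%, where 17.7% of all genes were called for E17.5 valve and 21.1% for E12.5 cushion. Their median difference was -0.24 between the stages, 0.00 for E17.5 valve and 0.19 for E12.5 cushion against MC3T3. Celsr1, a planar polarity cadherin, was 12.2-fold higher in E17.5 valve and 13.7-fold higher in E12.5 cushion. The desmosomal genes Dsg2 and Dsc2 were 9.26-fold and 8.66-fold higher in E17.5 valve and 6.1-fold and 7.77-fold higher in E12.5 cushion. Cardiomyocytes carry desmosomes too, and cardiomyocyte markers had median log2 ratios of 0.18 and 0.10 in E17.5 valve, -0.22 and -0.14 in E12.5 cushion, and -6.61 and -6.54 in MC3T3. Their part in the desmosomal values was not tested. Cdhr1 and Fat1 were lower in E17.5 valve than in MC3T3, 3.87-fold and 2.72-fold.

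Of 19 genes for cadherin processing and turnover 1 was called higher and 0 lower in E17.5 valve than in E12.5 cushion by limma. That is 5.26%, where 6.51% of all genes were called. At an unadjusted limma p below 0.05, 6 were higher and 5 lower. Adam9, a membrane metalloprotease gene, rose 2.67-fold. Against MC3T3, 3 of the 19 genes were higher and 1 lower in E17.5 valve, and 2 higher and 2 lower in E12.5 cushion. So 21.1% were called for each tissue, where 17.7% of all genes were called for E17.5 valve and 21.1% for E12.5 cushion. Their median difference was -0.04 between the stages, -0.12 for E17.5 valve and -0.04 for E12.5 cushion against MC3T3. A further list held 11 measured transcription factors that repress Cdh1 or are linked to the loss of cell junctions. Between the stages 36.4% of them were called, where 6.51% of all genes were. Of the 11, 2 were higher and 2 lower in E17.5 valve than in E12.5 cushion. Twist1 had by far the largest of these differences and fell 8.18-fold with stage (limma adjusted p = 1.89e-06), Tcf3 fell 2.4-fold (limma adjusted p = 4.62e-05), and Tcf4 and Zeb2 rose 2.47-fold and 2.18-fold. Against MC3T3, 2 were higher and 4 lower in E17.5 valve, and 2 higher and 5 lower in E12.5 cushion. This is 54.5% and 63.6%, where 17.7% and 21.1% of all genes were called. The median difference over the 11 was -0.23 between the stages, -0.67 for E17.5 valve and -0.94 for E12.5 cushion against MC3T3. Snai2 was 4.68-fold lower in E17.5 valve and 4.61-fold lower in E12.5 cushion than in MC3T3, and Snai1 3.73-fold and 2.4-fold lower. Twist1 was 6.83-fold lower in E17.5 valve than in MC3T3. Foxc2, a forkhead gene of developing valves, was 5.56-fold and 8.22-fold higher in E17.5 valve and E12.5 cushion. No relation between these factors and the Cdh1 values was tested.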

How the data were processed

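Gene expression of 6 samples was measured on Affymetrix arrays, 2 in each of 3 groups taken from the sample titles. The value table deposited by the authors holds linear ratios. Its experiment description names GeneSpring GX 7.3, RMA with quantile normalization, and a division of each gene by its median. A median of 1 over the 4 embryonic arrays was found for every probe set (tolerance 1.5e-07), and the lowest ratio was 0.01 (log2 -6.64). The description leaves unstated whether the MC3T3 arrays were normalized with the rest.

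Log2 was taken of the deposited ratios. Of 45101 probe sets, 64 controls, 932 naming more than one gene and 9160 unnamed were left out, and 34945 for 18193 genes were kept. All 56 member symbols matched RefSeq. All 6 arrays entered one limma 3.58.1 model in R 4.3.3, moderated by eBayes with no trend (residual degrees of freedom 3, prior 4.57). P-values were adjusted by the method of Benjamini and Hochberg per comparison, and the code was tested on simulated data. The number of arrays limits the precision, with a median SE of 0.0908. No member had a value at the floor. Intensities are not in the table, so depth and dim genes cannot be judged.

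Every member called in a comparison was named, with a fixed set of cadherins and protocadherins whether called or not, and up to 3 called genes each way of each partner list. Other members named here were chosen after their values were seen. The members, lists and rules were chosen with earlier results of these data known. Pathway and marker lists are described by counts, with no test of a list.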

Additional observations from a re-analysis of the deposited data

How the results depend on the processing

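The counts of members called were recomputed under 19 alternatives. Without the 2-fold requirement they came to 19 higher and 11 lower between the stages, 18 and 23 for E17.5 valve against MC3T3, and 19 and 20 for E12.5 cushion against MC3T3. At 4-fold they came to 0 higher between the stages, 3 higher and 6 lower for E17.5 valve against MC3T3, and 3 higher and 6 lower for E12.5 cushion against MC3T3. With every probe set as its own item, the count of members called higher rose in every comparison. For E12.5 cushion against MC3T3 it was 10, since single probe sets added Cdh10, Pcdh9, Pcdh11x and Pcdh12. For E17.5 valve against MC3T3 it was 12, with Cdh10, Pcdh9, Pcdh12 and Pcdh15 added. Between the stages it was 6, with Pcdh15 and Pcdh19 added. The counts called lower did not change in this setting. Leaving out each array in turn gave 4 to 5 higher and 0 to 1 lower between the stages (Pcdh8 at -1.24 without E12.5 replicate 2), 7 to 8 higher and 10 to 13 lower for E17.5 valve against MC3T3, and 5 to 7 higher and 11 to 12 lower for E12.5 cushion against MC3T3. With only replicate 2 of both embryonic stages, chosen after the values were seen, the counts were 4 and 0, 7 and 11, and 6 and 11. Signs turned only for differences that were never called. Over the arrays left out in turn, Cdh4 ranged from -0.024 to 0.050 between the stages, and in E17.5 valve against MC3T3 Cdh2 ranged from -0.011 to 0.361 and Cdh15 from -0.055 to 0.032. Cdh15 was at 0.11 there when arrays were centred. The cause was not tested.

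With the replicate number as a block, the counts were 4 higher and 0 lower between the stages, 8 and 11 for E17.5 valve against MC3T3, and 6 and 11 for E12.5 cushion against MC3T3. The deviations of same-numbered arrays correlated at 0.15 between the stages and at 0.02 and 0.06 between each stage and MC3T3. As not every pair exceeded 0.1 and no label ties the numbers to a shared source, the arrays were not treated as pairs. No filter on dim genes could be tried, because ratios hold no intensity.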
